A study of Homo sapiens with 6 samples.

Results

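The nuclear-encoded respiratory chain subunits are the genes whose products build the electron transport complexes I to IV and the ATP synthase, complex V, of the inner mitochondrial membrane. They were chosen by gene symbol, with earlier results of these data known. The symbols selected 37 NDUF genes for complex I, 4 SDH genes for complex II, 9 UQCR genes and CYC1 together for complex III, 13 COX genes for complex IV and 19 ATP5 genes for complex V. That gave 82 genes of the 22496 symbols with a value in at least 1 library. The levels came from poly-A RNA of LoVo, an established human colon adenocarcinoma cell line, in 2 groups. The first group held 3 libraries of SHARPIN knockout cells (KO), and its control held 3 libraries of cells with the genotype non-target (NT). Both groups were LoVo with no treatment named. How the knockout was made, and whether the KO cells were 1 clone or a pool, is not stated in those labels. SHARPIN belongs to LUBAC, the complex that builds linear ubiquitin chains, and the series addresses the effect of its loss on the transcriptome.

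The respiratory chain passes electrons from NADH, through complex I, and from succinate, through complex II, to coenzyme Q, then through complex III and cytochrome c to oxygen at complex IV. Complexes I, III and IV pump protons, and complex V uses the proton gradient to make ATP. A few subunits are encoded by mitochondrial DNA, which are not analysed here. The rest are nuclear genes, most of them expressed in nearly every cell type, colon epithelium included. Many of their promoters are known targets of the transcription factors NRF1 and GABP, an ETS family factor.

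The sum of FPKM (fragments of a gene relative to its length in kilobases and to all mapped fragments) was 416852 to 522919 over the KO libraries and 421585 to 431264 over the NT libraries, and KO replicate 3 held the highest sum. Depth, estimated from the smallest steps between values, was 21100000 to 22500000 fragments per library. On the first principal component (58.6% of the variance) KO and NT lay apart. On the second (26.2%) the replicate 1 library of each group had a high score. The SHARPIN transcript, on chromosome 8, had 7.55, 11.9 and 18.1 FPKM in KO libraries, against 11.9, 13.9 and 12.9 FPKM in NT libraries. This is a log2 fold change of -0.12 ± 0.26 (SE), with a limma adjusted p of 0.827, and the transcript level does not check the labels. Of 10 colon epithelium markers, all were measured, and KRT19 was higher and VIL1, CDH17, GPA33 and LGALS4 were lower in KO. The summed level of the 10 was 4810 to 9660 FPKM in KO and 4140 to 5290 FPKM in NT. Most of that sum was KRT8 (2216 to 4287 FPKM in KO) and KRT18 (1650 to 4257 FPKM in KO). Neither passed the test, and in NT they had 1866 to 2409 FPKM and 1586 to 2326 FPKM. The summed level of 6 fibroblast markers was 0.234 to 0.798 FPKM in KO and 7.77 to 18.8 FPKM in NT, with COL1A1 at 6.60 FPKM and COL1A2 at 6.12 FPKM in NT replicate 1 alone and both at 0.29 FPKM or less elsewhere. LUM, another of them, had 0.151 to 0.385 FPKM in KO and 5.03 to 7.52 FPKM in NT. The summed levels of leukocyte markers, at most 0.137 FPKM in KO and 0.194 FPKM in NT, and of muscle markers, at most 0.19 FPKM in KO and 0.196 FPKM in NT, were near 0. Endothelium markers summed to at most 0.062 FPKM in KO and 0.626 FPKM in NT. The part of these markers in the subunit results was not tested. The labels do not state whether replicates were separate cultures, and p-values therefore reflect only the variation among these 6 libraries, which may be technical.

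Promoter sequence was at hand for 65 of the 82 genes, from a RefSeq table on GRCh38.p14, of which the 250 bases before the first listed start were read. Letters of the NRF1 motif, GCGCANGCG on either strand, stood in 19 of the 65 (29.2%), against 7.02% of 27305 genes and 9.72% of the protein-coding ones among them. Letters of an ETS motif, CCGGAAG, stood in 17 (26.2%), against 8.82% of all genes and 11.8% of protein-coding genes. Only 4 promoters held both, and no letters of different motifs overlapped. The letters AAGATGGCG of a YY1 motif stood in 1 promoter (1.54%, against 0.641% of all genes). In all, 32 of the 65 promoters (49.2%) held at least 1 of these motifs, against 15.1% of all genes and 20.3% of protein-coding genes. The general promoter letters GGGCGGG, of an Sp1 motif, stood in 29.2% of subunit promoters, against 31.4% of all promoters and 42.9% of protein-coding ones. CCAAT stood in 32.3% of subunit promoters, against 33.0% of all promoters and 34.5% of protein-coding ones. The median GC content of the windows was 60.8% in subunit promoters, against 58.0% in all promoters and 62.4% in protein-coding ones. A match is a description of the letters, not a binding site. The windows of 9 subunit genes come from genes with more than 1 listed start, and a window may reach into a transcript from another start.

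Stretches of 3 promoters are shown because they belong to ATP5MC2, the only subunit gene that passed the test, to its paralog ATP5MC1, which encodes the same mature protein, and to NDUFA12, the subunit with the largest positive fold change. Each is the longest run within the window that lies outside annotated exons, 5′ to 3′ on the strand of the gene, with the NRF1 letters in capitals. By a match to GRCh37, the build of the deposited values, the ATP5MC2 stretch of 92 bases is chr12:54069868-54069959 on the minus strand. It ends at the start used. ATP5MC2 has 3 listed starts, and the stretch lies within the annotated gene, whose 5′ end is at 54071192, so the start used is internal. The ATP5MC1 stretch of 87 bases is chr17:46970040-46970126 on the plus strand and ends 22 bases before the start used. The NDUFA12 stretch of 199 bases is chr12:95397525-95397723 on the minus strand and ends 51 bases before the start used.
ATP5MC2: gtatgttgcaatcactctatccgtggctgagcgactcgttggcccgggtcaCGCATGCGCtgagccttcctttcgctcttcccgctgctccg
ATP5MC1: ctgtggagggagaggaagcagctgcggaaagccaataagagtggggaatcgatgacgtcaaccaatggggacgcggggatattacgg
NDUFA12: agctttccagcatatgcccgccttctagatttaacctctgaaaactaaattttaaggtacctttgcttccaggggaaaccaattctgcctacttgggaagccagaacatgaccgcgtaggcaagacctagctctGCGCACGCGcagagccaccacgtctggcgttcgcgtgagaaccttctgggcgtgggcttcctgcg
The NRF1 letters lay 41 to 33 bases before the start used for ATP5MC2 and 116 to 108 bases before that used for NDUFA12. The ATP5MC1 window held none of the NRF1, ETS or YY1 letters. Over the tested subunits, the median log2 fold change was -0.02 for the 19 with NRF1 letters and 0.03 for the 46 without. It was 0.05 for the 17 with ETS letters and -0.01 for the 48 without.

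Subunit transcripts were abundant in both groups, and their levels were nearly in the same order in KO and NT cells. The median subunit, at 77.4 FPKM over the 6 libraries, lay at percentile 94.7 of all tested genes, whose median was 8.05 FPKM. Across the 79 tested subunits, the Spearman correlation between mean KO and mean NT log2 levels was 0.98, which describes genes measured in the same libraries and carries no p. In complex I, levels ran from 9.78 FPKM for NDUFA5 to 181 FPKM for NDUFB9, and in complex II from 31.5 FPKM for SDHC to 89.1 FPKM for SDHA. The range was 28.2 FPKM (UQCRB) to 284 FPKM (UQCRH) in complex III and 34.0 FPKM (COX7B) to 642 FPKM (COX7C) in complex IV. In complex V it was 57.7 FPKM (ATP5PF) to 645 FPKM (ATP5F1B). Subunits of a single complex thus differed in transcript level by 2.83-fold (complex II) to 18.9-fold (complex IV). The 3 genes under the filter of at least 1 FPKM in at least 3 libraries were tissue-restricted isoforms or a gene copy. COX7A1, the heart and skeletal muscle isoform, had at most 0.181 FPKM in KO libraries and 0.205 FPKM in NT libraries. COX4I2, an isoform known from lung, was listed only in KO replicate 2, at 0.069 FPKM. ATP5MGL, a copy of ATP5MG, had at most 0.056 FPKM in KO and 0.093 FPKM in NT.

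**Figure D1:**
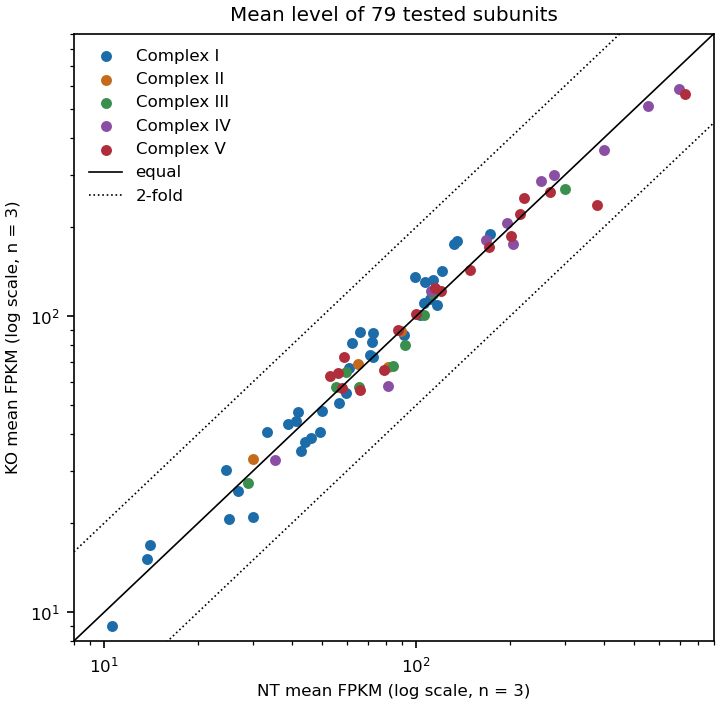
Mean FPKM of the 79 tested subunits in KO (vertical axis) and NT (horizontal axis), each over 3 libraries and on log scales, coloured by complex, with lines for equal levels and for 2-fold differences. All points lie between the dotted 2-fold lines, and ATP5MC2, at 237 FPKM in KO and 381 FPKM in NT, is the red point that lies well below the line of equality.

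Of the 79 tested subunits, 0 were higher and 1 was lower in KO at an adjusted p under 0.05 (limma on log2(FPKM + 1), Benjamini-Hochberg over 13092 genes), and 78 did not pass. Among all tested genes, 6.26% were called higher and 5.93% lower. At an unadjusted p under 0.05 there were 5 of 79 subunits, ATP5MC2, NDUFS1, COX7A2L, NDUFA12 and ATP5F1B, against 25.5% of all tested genes. In RNA of whole cultures, fewer cells of a type and less RNA per cell cannot be told apart, and a level is relative to all other mapped fragments of its library. Fold changes were small and lay on both sides of 0. They ran from -0.68 to 0.44 on the log2 scale, 41 positive and 38 negative, with a median of 0.02, the same as that of all tested genes. For 78 of 79 subunits (98.7%), the 95% interval of the fold change lay within 2-fold in either direction, against 78.1% of all tested genes. The exception was ATP5MC2, whose interval ran from -1.10 to -0.27. For 36 subunits (45.6%) it lay within 1.5-fold, against 29.3% of all tested genes. For the rest, the interval reached beyond 1.5-fold.

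**Figure D2:**
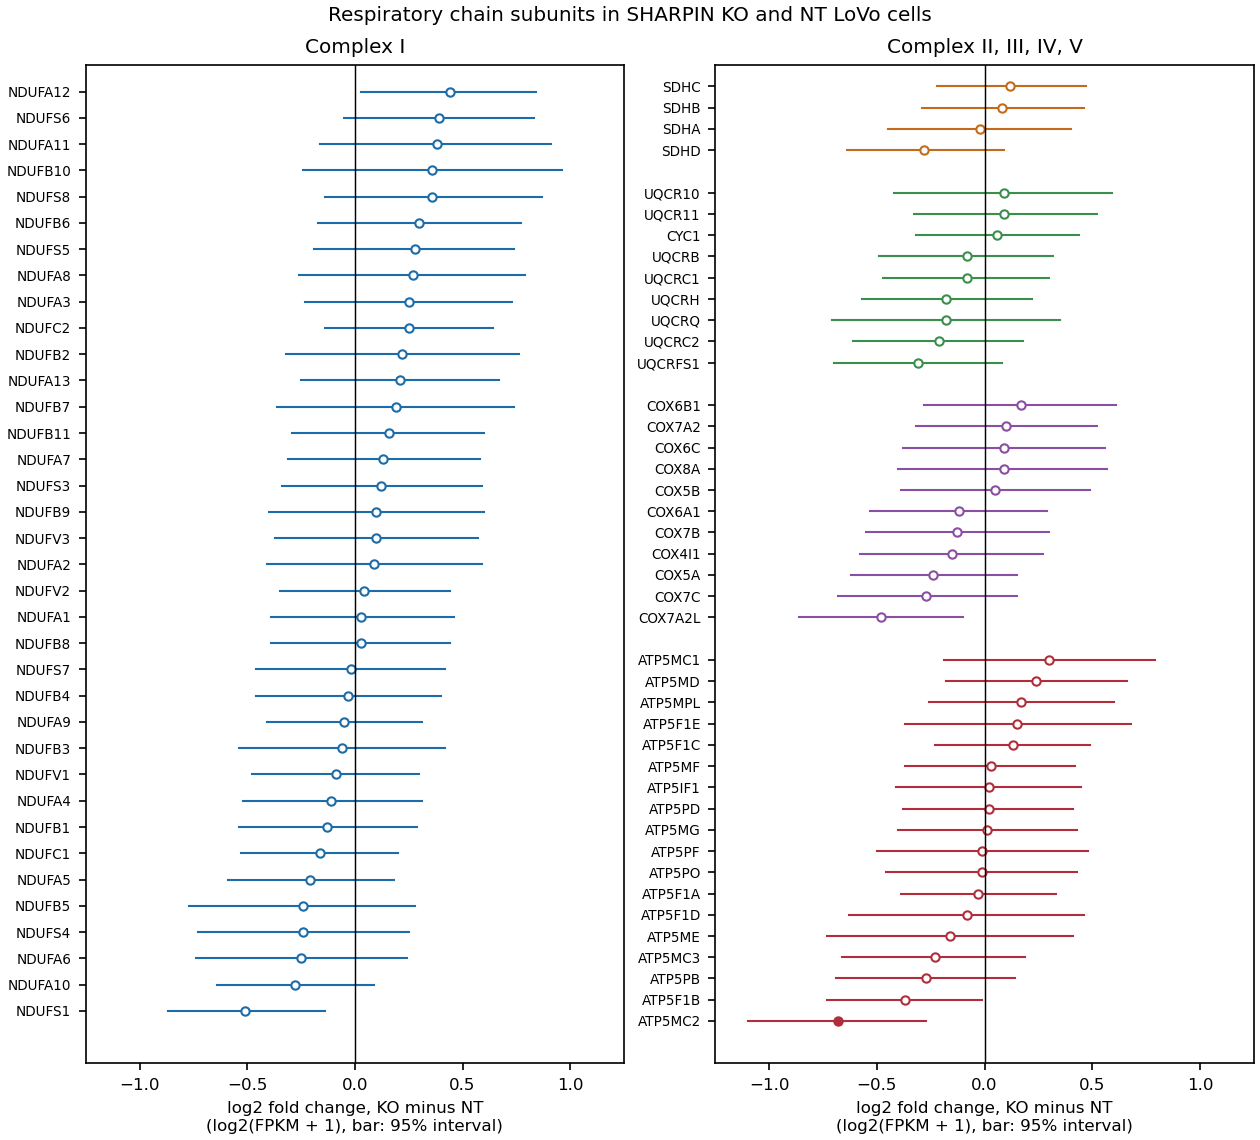
Log2 fold change, KO minus NT on log2(FPKM + 1), with its 95% interval for the tested subunits reported here, grouped by complex and ordered within it; filled points mark an adjusted p under 0.05. ATP5MC2, at the bottom right at -0.68, is the only filled point, and the others lie between -0.51 (NDUFS1) and 0.44 (NDUFA12).

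The KO and NT libraries did not overlap for 11 subunits. KO lay above NT for 2 of 79, NDUFA12 and NDUFS6, against 16.5% of all tested genes, and below NT for 9, against 15.7%. Among the 9 were NDUFS1, NDUFA10, SDHD, COX5A, COX7A2L, COX7C, ATP5F1B and ATP5MC2. NDUFS6, NDUFA10 and COX5A are named here because their values did not overlap, after those values were seen. The share below NT, 9 of 79, was under the background on the FPKM scale, but not when each library was scaled to its FPKM sum, as given below for TPM.

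Complex I oxidizes NADH, and 0 of its 37 subunits passed the test. Its median log2 fold change was 0.09, and 22 were positive and 15 negative. NDUFS1, the largest iron-sulfur subunit of the arm that oxidizes NADH (chromosome 2, 206979541 to 207024233, GRCh37), had 21.9, 23.1 and 17.7 FPKM in KO libraries, against 29.1, 30.1 and 30.5 FPKM in NT libraries. All 3 KO libraries lay below all NT libraries, and the NT values lay close together. The log2 fold change was -0.51 ± 0.16 (SE, n = 3 per group), with a limma adjusted p of 0.0764. NDUFS8, an iron-sulfur subunit of the same arm, had a fold change of the other sign: 71.1, 66.8 and 105 FPKM in KO, against 48.6, 68.7 and 69.8 FPKM in NT. The groups overlapped, at 0.36 ± 0.22 (limma, adjusted p = 0.362).

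A further 4 core subunits of complex I stood close to 0. NDUFV1, which binds NADH and the flavin, averaged 86.7 ± 15.2 FPKM in KO and 91.5 ± 2.65 FPKM in NT (SD, n = 3 each), a log2 fold change of -0.09. NDUFV2, its iron-sulfur partner, averaged 74.0 ± 13.2 FPKM in KO and 71.1 ± 4.22 FPKM in NT, at 0.04. NDUFS3, a core subunit of the same arm, averaged 43.3 ± 12.3 FPKM in KO and 38.8 ± 2.93 FPKM in NT, at 0.12. NDUFS7, which carries the iron-sulfur cluster next to coenzyme Q, was at -0.02, with 73.1 ± 16.4 FPKM in KO and 72.7 ± 3.54 FPKM in NT. For each of them the KO and NT libraries overlapped and the KO SD was the larger.

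Among the accessory subunits of complex I, NDUFA12 (chromosome 12, 95289073 to 95397524, GRCh37), whose NRF1 letters are shown above, had the largest positive change of all subunits. It had 143, 110 and 154 FPKM in KO, against 92.8, 98.0 and 107 FPKM in NT. All KO values lay above all NT values, with KO replicate 2 just above NT replicate 3. The log2 fold change was 0.44 ± 0.18 (limma, adjusted p = 0.161). NDUFS6, a zinc-binding subunit, had 164, 143 and 220 FPKM in KO, against 117, 142 and 137 FPKM in NT, at 0.39 ± 0.20 (limma, adjusted p = 0.257). The lowest KO value exceeded the highest NT value by about 1 FPKM. NDUFB9, the most abundant of the complex, was at 0.10 with overlapping groups. NDUFA10, a subunit on the matrix side, had 20.6, 18.1 and 23.2 FPKM in KO, against 23.3, 25.7 and 26.5 FPKM in NT, at -0.28 ± 0.16 (limma, adjusted p = 0.328). NDUFA4 was counted here by its symbol, though its protein is now regarded as a part of complex IV, and its change was -0.11. The remaining accessory subunits lay between -0.25 (NDUFA6) and 0.38 (NDUFA11).

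Complex II, succinate dehydrogenase, also belongs to the citric acid cycle, and 0 of its 4 subunits passed. SDHA, the flavoprotein that oxidizes succinate, averaged 88.8 ± 18.8 FPKM in KO and 89.4 ± 9.33 FPKM in NT, at -0.02 ± 0.19. SDHB, the iron-sulfur subunit, was at 0.08 ± 0.17. The pair of membrane anchors differed in sign, SDHC at 0.12 ± 0.15 and SDHD at -0.28 ± 0.16 (limma, adjusted p = 0.671 and 0.338). SDHD had 78.6, 61.8 and 62.1 FPKM in KO, against 83.8, 79.0 and 81.7 FPKM in NT. Its highest KO value, in replicate 1, lay just below the lowest NT value. The difference between SDHC and SDHD was not tested.

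In complex III, which passes electrons from coenzyme Q to cytochrome c, 0 of 9 subunits passed and the groups overlapped for all 9. The median log2 fold change was -0.08. UQCRFS1, the Rieske iron-sulfur protein, had 67.6, 58.3 and 77.9 FPKM in KO, against 94.1, 80.9 and 77.4 FPKM in NT. KO replicate 3 lay just above NT replicate 3, and the log2 fold change was -0.31 ± 0.17 (limma, adjusted p = 0.308). CYC1, whose heme passes electrons to cytochrome c, averaged 119 ± 18.2 FPKM in KO and 113 ± 2.44 FPKM in NT, at 0.06. UQCRH, the hinge protein and the most abundant of the complex, had 287, 219 and 297 FPKM in KO, against 283, 304 and 315 FPKM in NT, at -0.18 ± 0.18. UQCRHL, a near-identical copy of UQCRH outside the set, had 14.6 to 20.9 FPKM in KO and 15.2 to 21.5 FPKM in NT, and the assignment of fragments shared by the pair is not known here, so both levels are uncertain. The core proteins UQCRC1 and UQCRC2 stood at -0.08 and -0.21, and UQCR11, a small subunit, had the largest positive change, 0.09.

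Complex IV, cytochrome c oxidase, had 0 of 11 tested subunits past the threshold and a median log2 fold change of -0.12. COX7A2L, a COX7A relative known to join complexes III and IV into supercomplexes (chromosome 2, 42560686 to 42652228, GRCh37), had 55.7, 51.2 and 67.4 FPKM in KO, against 74.9, 83.2 and 85.1 FPKM in NT. The highest KO value lay below the lowest NT value. The log2 fold change was -0.48 ± 0.17 (limma, adjusted p = 0.102), and without KO replicate 3 it was -0.59 (limma, adjusted p = 0.0464, the only exclusion of 1 library that passed). COX7A2, the related isoform built into the enzyme outside muscle, averaged 181 ± 33.2 FPKM in KO and 168 ± 18.9 FPKM in NT, at 0.10 ± 0.19, and the muscle isoform COX7A1 was near 0 as given above. The COX4 family likewise rested on 1 gene: COX4I1 had 352, 293 and 450 FPKM in KO, against 402, 394 and 402 FPKM in NT, at -0.15 ± 0.19 (limma, adjusted p = 0.675). The 3 NT values differed by under 10 FPKM, and the KO values lay on both sides of them. With each library scaled to its FPKM sum, all KO values of COX4I1 lay below all NT values.

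COX7C, the most abundant subunit transcript of complex IV, had 665, 465 and 630 FPKM in KO, against 672, 678 and 743 FPKM in NT. KO replicate 1 lay just below the lowest NT library, and the log2 fold change was -0.27 ± 0.19 (limma, adjusted p = 0.419). COX5A, an early partner of COX4 in assembly, had 190, 147 and 188 FPKM in KO, against 222, 191 and 203 FPKM in NT, at -0.24 ± 0.17 (limma, adjusted p = 0.444). Its groups were separated by less than 1 FPKM. COX6B1, on the side facing cytochrome c, had the largest positive change of the complex, 0.17 ± 0.20, with 295, 224 and 338 FPKM in KO, against 257, 219 and 280 FPKM in NT.

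In complex V, the ATP synthase, 1 of 18 tested subunits passed and 17 did not, with a median of 0.00. The subunit that fell was ATP5MC2 (chromosome 12, 54026510 to 54071192, GRCh37), one of 3 genes that encode the same subunit c, of which the proton-driven ring in the membrane is built. It had 261, 197 and 255 FPKM in KO, against 425, 393 and 327 FPKM in NT. All KO libraries lay below all NT libraries, with KO replicate 2 the lowest. On the log2 scale the difference was -0.68 ± 0.19 (SE, n = 3 per group), with a limma adjusted p of 0.0418. Since the groups did not overlap, leaving out 1 library could not change the direction. Over the 6 fits that did so, the log2 fold change ran from -0.79 to -0.56. The limma adjusted p ran from 0.0467 to 0.191 and passed only without KO replicate 1. It was 0.113 without KO replicate 2, 0.052 without KO replicate 3, 0.135 without NT replicate 1, 0.191 without NT replicate 2 and 0.0958 without NT replicate 3. With NT replicates 2 and 3, which scored nearly alike on both principal components, counted as 1 library, the adjusted p was 0.131.

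Neither paralog passed the test. ATP5MC1, whose promoter stretch is printed above, had 71.7, 57.6 and 89.4 FPKM in KO, against 45.8, 62.2 and 68.4 FPKM in NT, at 0.30 ± 0.22 (limma, adjusted p = 0.436). ATP5MC3 had 48.7, 53.0 and 67.5 FPKM in KO, against 55.9, 72.6 and 70.5 FPKM in NT, at -0.23 ± 0.19 (limma, adjusted p = 0.488). Both pairs of groups overlapped, and the differences between the 3 paralogs were not tested. Summed over the 3 genes, subunit c transcripts had 381, 308 and 412 FPKM in KO, against 526, 528 and 466 FPKM in NT, or 367 ± 53.3 FPKM in KO and 507 ± 35.4 FPKM in NT (SD, n = 3 each). ATP5MC2 made up 68.4%, 64.1% and 61.9% of that sum in KO, against 80.7%, 74.5% and 70.2% in NT. The KO shares lay below the NT shares, and ATP5MC2 was the main subunit c transcript in every library.

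Other parts of the ATP synthase stood closer to 0. ATP5F1B, the catalytic beta subunit and the most abundant transcript of all subunits, had 617, 503 and 571 FPKM in KO, against 733, 747 and 698 FPKM in NT. The KO values all lay lower, at -0.37 ± 0.16, with an unadjusted p of 0.0471 and a limma adjusted p of 0.19. ATP5F1A, the alpha subunit with which beta forms the catalytic head, averaged 263 ± 19.6 FPKM in KO and 268 ± 20.2 FPKM in NT, at -0.03 ± 0.16. The central stalk genes ATP5F1C (gamma), ATP5F1D (delta) and ATP5F1E (epsilon) were at 0.13, -0.08 and 0.15. The peripheral stalk genes ATP5PB, ATP5PD, ATP5PF and ATP5PO were at -0.27, 0.02, -0.01 and -0.01. ATP5IF1, the inhibitor that blocks ATP hydrolysis, averaged 89.7 ± 19.4 FPKM in KO and 87.4 ± 4.64 FPKM in NT, at 0.02 ± 0.19. All of these stalk and inhibitor genes had overlapping groups. ATP5MD and ATP5MPL are older symbols of ATP5MK and ATP5MJ, small membrane subunits, and stood at 0.24 and 0.17.

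**Figure D3:**
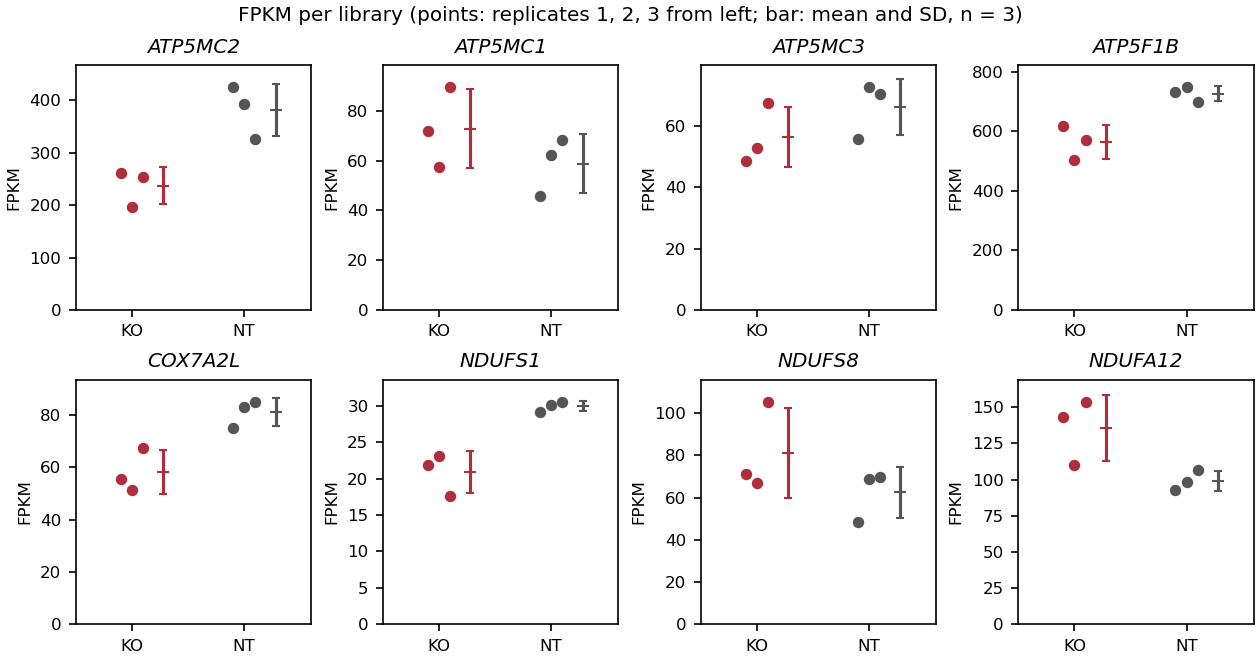
FPKM in each library for 8 subunits, KO in red to the left of NT in grey, with replicates 1, 2 and 3 from left within a group and bars for the mean and SD (n = 3). For ATP5MC2, ATP5F1B, COX7A2L and NDUFS1 every KO point lies below every NT point, for NDUFA12 every KO point lies above, and for ATP5MC1, ATP5MC3 and NDUFS8 the groups overlap.

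The KO libraries differed among themselves more than the NT libraries did. The median coefficient of variation of a tested subunit was 19.5% in KO and 8.25% in NT, and over all tested genes it was 22.1% in KO and 12.2% in NT. Relative to the NT mean, the median subunit stood at -0.02, -0.26 and 0.24 on the log2 scale in KO replicates 1, 2 and 3, against -0.07, 0.03 and 0.06 in NT replicates 1, 2 and 3. KO replicate 2 was thus low and KO replicate 3 high on the FPKM scale. For all tested genes the same medians were -0.06, 0.08 and 0.06 in KO. On the TPM scale the subunit medians were -0.02, -0.24 and -0.05 in KO replicates 1, 2 and 3, beside -0.06, 0.11 and -0.21 for all tested genes, so that KO replicate 3 was not high among the 6 libraries there. On the FPKM scale, where KO replicate 3 had the highest sum, it was the highest of the 6 libraries for 50 of 79 subunits (63.3%, against 29.3% of all tested genes). KO replicate 2 was the lowest for 42 on that scale (53.2%, against 8.38%). The 5 complexes shared the FPKM pattern unevenly: KO replicate 3 stood at 0.39 in complex I and -0.01 in complex II. KO replicate 2 stood from -0.38 in complex IV to -0.15 in complex I. The part of library preparation in this spread was not tested.

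Summed by complex, the KO and NT ranges of FPKM overlapped for complexes I, II, III, IV and V. Complex I subunits summed to 2582, 2337 and 3425 FPKM in KO, against 2298, 2618 and 2684 FPKM in NT. Complex IV subunits summed to 2933, 2271 and 3271 FPKM in KO, against 2936, 2923 and 3065 FPKM in NT. Complex V subunits summed to 2918, 2394 and 3259 FPKM in KO, against 3070, 3222 and 3086 FPKM in NT. In each of these, KO replicate 2 gave the lowest and KO replicate 3 the highest sum of the KO libraries. All subunits together summed to 9570 ± 1620 FPKM in KO and 9810 ± 309 FPKM in NT (SD, n = 3 each).

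KO replicate 3 also had the highest FPKM sum over all genes, so shares of that sum give another view. The subunits held 2.26%, 1.90% and 2.14% of the sum in KO, against 2.24%, 2.36% and 2.32% in NT. KO replicate 1 lay within the NT range and the other KO libraries below it. Complex V held 0.687%, 0.574% and 0.623% in KO, against 0.727%, 0.764% and 0.716% in NT, with no overlap. Complex IV held 0.690%, 0.545% and 0.626% in KO, against 0.696%, 0.693% and 0.711% in NT, and did not overlap either. Complex III held 0.205%, 0.169% and 0.183% in KO, against 0.205%, 0.220% and 0.215% in NT, so that its groups touched, and complex I held 0.607%, 0.561% and 0.655% in KO, against 0.544%, 0.621% and 0.622% in NT. On this scale, which is TPM, KO lay below NT for 19 subunits and above for 2, against 17.4% and 12.8% of all tested genes, so that here 19 of 79 was above the background. The subunit median was then -0.07, beside -0.06 for all tested genes, and limma called 2 subunits (2.53%) lower, ATP5MC2 (adjusted p = 0.0129) and COX7A2L (adjusted p = 0.0284), against 10.5% of all tested genes called in either direction. Across the 79 subunits the Spearman correlation of transcript length with the fold change was -0.30, and across all matched genes it was -0.06, as a description over genes of the same libraries. The median annotated length was 638 bases for subunits and 1111 bases for all matched genes.

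**Figure D4:**
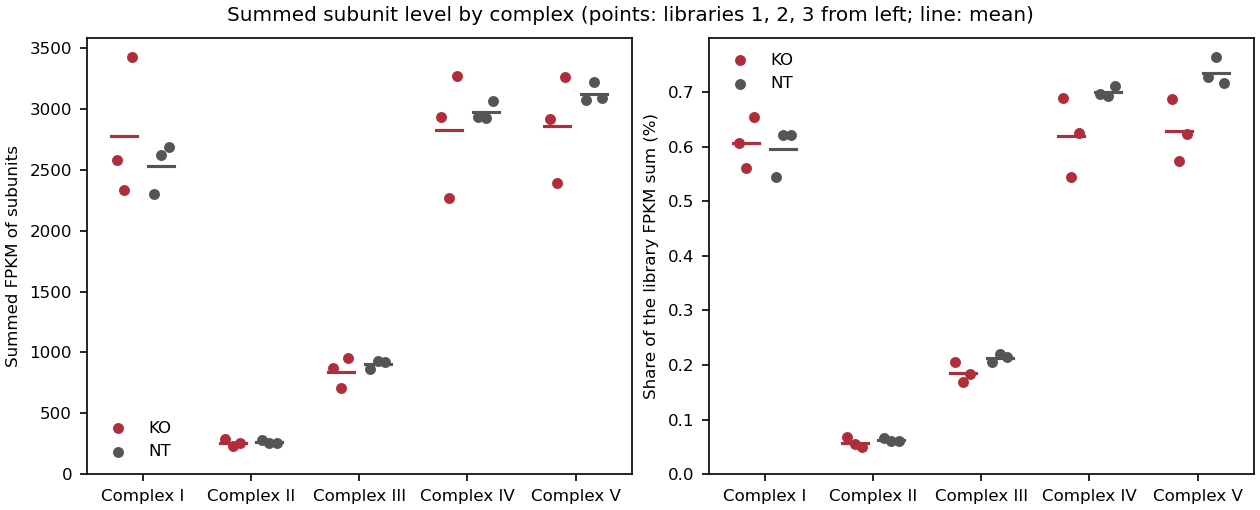
Summed level of the subunits of each complex in each library, in FPKM (left) and as a percentage of the FPKM sum of the library (right), with KO in red to the left of NT in grey and a line for the mean of 3 libraries. KO replicate 3 is the highest KO point for complexes I, III, IV and V on the left, and on the right the KO points of complex V, at 0.574% to 0.687%, and of complex IV, at 0.545% to 0.690%, lie below the NT points.

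Deviations from group means correlated across genes at 0.547 between the replicate 1 libraries of KO and NT. For the other replicates, same-numbered libraries (0.309 and 0.331) correlated no more clearly than differently numbered ones (0.321 and 0.32). Taking the replicate numbers as pairs thus rests on replicate 1. A fit with the replicate as a block called 3 subunits, all lower in KO. They were ATP5MC2 (adjusted p = 0.00173), NDUFS1 (adjusted p = 0.0159) and COX7A2L (adjusted p = 0.0272), with fold changes as above. For 86.4% of genes, limma here used the spread shared across genes in place of the gene's own. In that limma fit 25.3% of all 13092 tested genes were called in either direction, 1542 of them lower. The share of subunits called, 3 of 79, was again under the background. NDUFA12 had an adjusted p of 0.0545 with the block. With the block and the GC and length trend removed, limma called 1 subunit lower, ATP5MC2, and 1 higher, NDUFA12 (adjusted p = 0.0403), while NDUFS1 (adjusted p = 0.0511) and COX7A2L (adjusted p = 0.0962) did not pass.

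Genes that act with the respiratory chain were taken from lists of assembly factors, electron carriers, citric acid cycle enzymes and regulators. Among assembly factors, 0 of 18 for complex I, 0 of 4 for complex II, 0 of 6 for complex III and 0 of 5 for complex V passed in either direction. Of 22 for complex IV, 0 were higher and 2 were lower, LRPPRC and COX11, against 6.26% and 5.93% of all tested genes. LRPPRC, which stabilizes mitochondrially encoded mRNAs and whose loss is known to impair complex IV, had 28.4, 29.9 and 23.5 FPKM in KO, against 56.7, 55.4 and 52.6 FPKM in NT. Every KO value was under every NT value by a wide margin. The log2 fold change was -0.99 ± 0.16 (limma, adjusted p = 0.00315), and it passed in all 6 fits that left out 1 library, with adjusted p from 0.0053 to 0.0239. COX11, which delivers copper to complex IV, had 16.2, 15.8 and 12.8 FPKM in KO, against 23.8, 25.0 and 23.3 FPKM in NT. Its groups did not overlap, at -0.65 ± 0.16 (limma, adjusted p = 0.0258). It passed in 2 of the 6 such fits, and its adjusted p was 0.0626 without KO replicate 2, 0.0685 without NT replicate 1, 0.168 without NT replicate 2 and 0.138 without NT replicate 3. The median of the complex IV list was 0.10, with 13 positive and 9 negative members. UQCC2, an assembly factor of complex III, had 34.6, 23.1 and 35.6 FPKM in KO, against 18.9, 17.8 and 19.7 FPKM in NT, at 0.67 ± 0.19 (limma, adjusted p = 0.0532). Its groups did not overlap, and it passed with the replicate block (limma, adjusted p = 0.000765). In that fit, 1 was higher and 0 lower for complex I and 1 higher and 1 lower for complex III. For complex IV 3 were higher and 2 lower, and for complexes II and V 0 in either direction. Of all 13092 tested genes 25.3% were called, 1767 higher and 1542 lower.

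The 17 genes for mobile electron carriers and coenzyme Q synthesis had a median of -0.33, with 13 negative and 4 positive, against 0.02 over all tested genes. Of the 17, 0 were higher and 2 were lower in KO, against 6.26% and 5.93% of all tested genes. Both genes called belong to the path that feeds electrons from fatty acid and amino acid oxidation into coenzyme Q. ETFA, a subunit of the electron transfer flavoprotein, had 73.4, 57.9 and 63.1 FPKM in KO, against 120, 105 and 97.6 FPKM in NT, at -0.72 ± 0.17 (limma, adjusted p = 0.0215). ETFDH, its dehydrogenase in the inner membrane, had 1.99, 3.28 and 3.52 FPKM in KO, against 4.95, 5.82 and 6.02 FPKM in NT, at -0.77 ± 0.20 (limma, adjusted p = 0.0383). Both sets of KO libraries lay below their NT libraries. Each gene passed in 2 of 6 fits that left out 1 library, those without KO replicate 1 and KO replicate 3. Without KO replicate 2 and NT replicates 1, 2 and 3, the adjusted p was 0.0766, 0.0773, 0.107 and 0.0806 for ETFA and 0.0762, 0.0703, 0.165 and 0.184 for ETFDH. ETFB, the other subunit, was at -0.45 ± 0.20 (limma, adjusted p = 0.187) and CYCS, cytochrome c, at -0.33 ± 0.19 (limma, adjusted p = 0.316). With the replicate block, 4 of the 17 were called, all lower. Over all 13092 tested genes that fit called 25.3%, 1767 higher and 1542 lower.

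Of 17 genes of the citric acid cycle and pyruvate dehydrogenase, 0 passed in either direction, at a median of -0.24, with 14 negative and 3 positive. CS, citrate synthase, came closest, with 111, 89.4 and 82.2 FPKM in KO, against 137, 134 and 135 FPKM in NT, at -0.52 ± 0.17 (limma, adjusted p = 0.0787). SUCLG2, a subunit of succinyl-CoA synthetase, had the most negative change, -0.89 ± 0.30 (limma, adjusted p = 0.0852), with 20.6, 10.7 and 8.59 FPKM in KO, against 30.5, 19.8 and 22.7 FPKM in NT, and overlapping groups. CS had an adjusted p of 0.016 with the replicate block. In that limma fit 3 of the 17 were called, all lower. Over all 13092 tested genes it called 25.3%, 1767 higher and 1542 lower. Of 13 tested regulators of mitochondrial biogenesis, 0 passed, at a median of -0.11, with 11 negative and 2 positive. NRF1, whose motif letters were searched above, had 2.91, 5.06 and 4.75 FPKM in KO, against 3.80, 5.03 and 4.60 FPKM in NT, at -0.08 ± 0.21. GABPA, the ETS subunit of GABP, had 6.02, 6.20 and 4.51 FPKM in KO, against 8.53, 6.64 and 6.60 FPKM in NT, at -0.33 ± 0.19 (limma, adjusted p = 0.312). PPARGC1B, a coactivator, was at -0.68 ± 0.19 (limma, adjusted p = 0.0524), with 1.24, 2.01 and 0.914 FPKM in KO, against 2.55, 2.82 and 2.88 FPKM in NT. It passed with the replicate block (limma, adjusted p = 0.00243), where 1 regulator was called higher and 1 lower. PPARGC1A was below the filter, at 0.27 FPKM or less in every library. Of 4 tested subunit genes and isoforms that the symbols did not select, among them NDUFAB1, the acyl carrier protein of complex I, at 0.04 ± 0.19, and UQCRHL, at -0.11 ± 0.20, 0 passed.

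**Figure D5:**
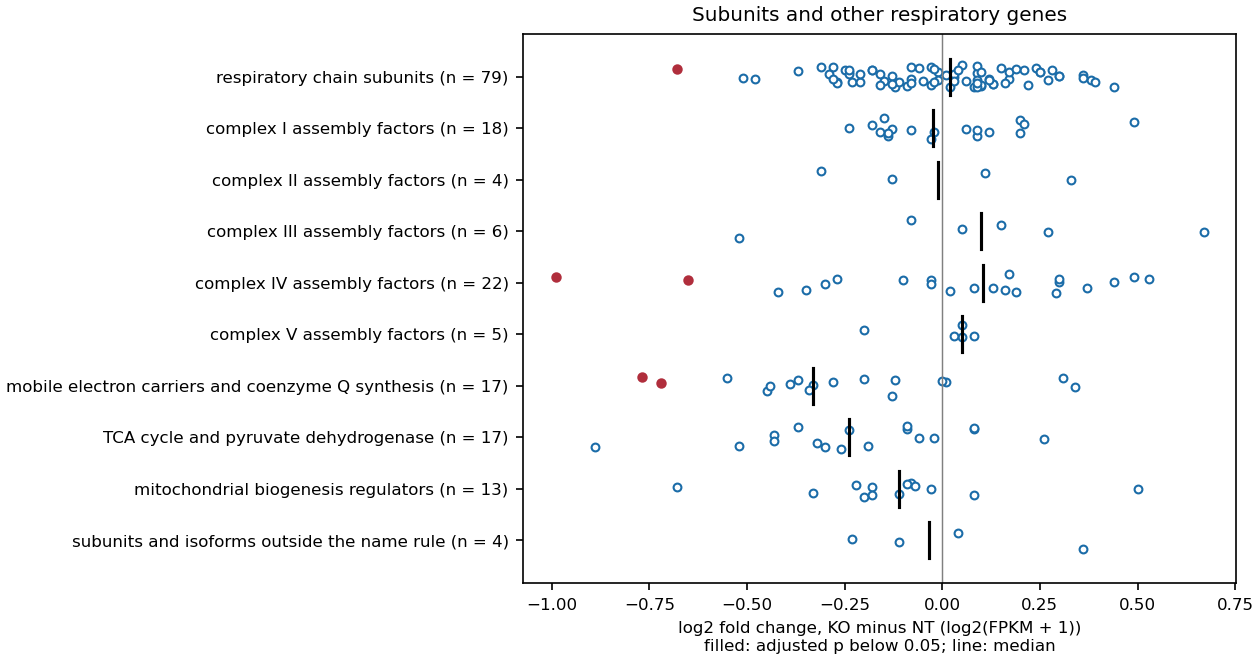
Log2 fold changes, KO minus NT on log2(FPKM + 1), of the subunits and of the other respiratory gene lists, 1 point per tested gene with its vertical position spread at random, filled red at an adjusted p under 0.05 and a black line at the median. The subunits centre on 0.02, the electron carrier list on -0.33 and the citric acid cycle list on -0.24, and the leftmost point is LRPPRC at -0.99.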

How the data were processed

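Poly-A RNA of 6 LoVo libraries was sequenced on a DNBSEQ instrument with dUTP marking of the second strand, per the labels' protocols. Per the submitters' processing notes, reads were trimmed and filtered, aligned with TopHat2 2.1.1 to hg19 and turned by the authors into FPKM with STAR 2.7.10b, the unit of the deposited values. Use of strand and treatment of shared fragments are not given in the sources used here.

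Symbols missing from a library's list were set to 0. The test was limma 3.58.1 (R 4.3.3; intensity trend, robust, two-sided) on log2(FPKM + 1), a scale that understates changes of low genes, for the 13092 genes that reached 1 FPKM in 3 or more libraries, with Benjamini-Hochberg adjustment at 0.05. The script was tested on simulated data. Counts could not be recovered, since the step behind the depth estimate rests on 68 to 88 of 768 to 894 low values per library, so no counting interval is given. Coordinates and lengths come from GENCODE v44lift37 by symbol (91.6% of symbols matched).

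Deviations from group means correlated across genes at 0.547, 0.309 and 0.331 between same-numbered libraries. The correlation was 0.321 between KO replicate 2 and NT replicate 3, and 0.32 between KO replicate 3 and NT replicate 2. The numbers were taken as pairs, which rests on replicate 1, since these values do not tell replicates 2 and 3 apart. The block fit had 2 residual degrees of freedom, and for 86.4% of genes the prior degrees of freedom were infinite. The p-values of those genes rest on the spread shared across genes, not on their own. Members and lists were chosen with earlier results of these data known. Named subunits are those past the threshold, the extremes and the most abundant of each complex, core, redox and catalytic subunits and isoform families. Further subunits are named where stated or where a group of subunits is given whole. Other genes are the called members of each list or that with the smallest p, and genes named for their role. Some that meet the rule are not reported here.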

Additional observations from a re-analysis of the deposited data

How the results depend on the processing

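The count of subunits called lower, 1 by the test above, moved with the processing. It was 0 with no filter, with median-ratio scaling, with NT replicates 2 and 3 counted as 1 and without both replicate 1 libraries (the last chosen after seeing the data). It ranged from 0 to 1 when each library was left out. It was 2 with TPM scaling, 3 with quantile normalization, 3 with the replicate block and 31 with array weights. Under array weights 39.2% of subunits, all of them lower, and 40.2% of all genes in either direction were called. Of the 13092 genes in that fit, 3202 were higher and 2067 lower. The KO replicate weights were 0.177, 2.39 and 0.236 and the NT weights 0.294, 3.60 and 9.47. The fit with array weights thus rests largely on KO replicate 2 and NT replicates 2 and 3. The count of subunits called higher was 0, except 1 (NDUFA12, adjusted p = 0.0403) with the replicate block and the GC and length trend removed. In that fit the count called lower was 1, and NDUFS1 (adjusted p = 0.0511) and COX7A2L (adjusted p = 0.0962) lost the calls they had with the block alone.

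Medians moved by more than the spread under array weights, to -0.22 for all subunits, -0.16 for complex I, -0.33 for complex IV and -0.26 for complex V, and under quantile normalization to -0.12 for complex II. The cause was not tested. ATP5MC2 was lower under every setting tried. Its adjusted p was 0.0661 with no filter, 0.0588 with median-ratio scaling and 0.101 without both replicate 1 libraries. ETFDH lost its call with no filter (adjusted p = 0.0661) and with the GC and length trend removed (0.154). The 95% interval lay within 1.5-fold for 36 of 79 subunits and reached beyond it for the others.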
